A study of Mus musculus with 6 samples.

Results

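The E2F transcription factors and the RB pocket proteins that hold them in check were followed in macrophages of skin wounds from young and aged mice. The 10 genes, E2f1, E2f2, E2f3, E2f4, E2f6, E2f7, E2f8, Rb1, Rbl1 and Rbl2, were taken by name from a table of 15168 genes, and all 10 were present in it. The mice were wild-type female C57BL/6J animals without a transgene, 12 weeks old in the young group and 24 months old in the aged group. Each mouse carried 2 full-thickness wounds of 10 mm on the back. Live CD45+CD11b+CD64+F4/80+ cells were sorted from the wounds at Day 3, and the study's methods state that Ly6G was not used for exclusion, which leaves a small neutrophil carry-over possible. There were 3 young and 3 aged samples, marked as sets A, B and C in each age. The sources used here do not say whether a sample was 1 mouse or a pool, so the p-values measure the spread between these samples. Total counts per sample ran from 15270106 to 17927485.

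E2F factors bind DNA with a DP partner and set the transcription of genes for DNA replication and mitosis. E2F1, E2F2 and E2F3 are activators, which RB, the product of Rb1, binds and silences until cyclin-dependent kinases phosphorylate it. E2F4 and E2F5 act as repressors with p107 and p130, the products of Rbl1 and Rbl2, and p130 with E2F4 holds the DREAM complex of resting cells on cell cycle promoters. E2F6 represses with Polycomb proteins and binds no pocket protein, while E2F7 and E2F8 bind DNA without a DP partner and dampen E2F targets late in S phase. Several of these genes, E2f1, E2f2, E2f7, E2f8 and Rbl1 among them, are known E2F targets themselves.

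Because members of the family can regulate each other through E2F sites, the stretches around the start sites were read first. RefSeq promoter windows, running from 250 bases before to 50 bases after a start site on GRCm38.p6, were matched for 8 of the 10 members, and E2f2 and E2f3 had 2 windows each. Rb1 and E2f4 were not matched. The words TTTCCCGC, TTTCGCGC, TTTGCCGC and TTTGGCGC, which are forms of the E2F site, were searched on both strands. They were found in 4 of the 10 windows (40.0%), against 744 of all 32851 windows (2.26%). The whole window is given for Rbl1, the called member with a match, and the stretch around the word for the other 3 matches. Each sequence reads 5′ to 3′ on the strand of the gene, and capitals mark the E2F word or its reverse complement.
Rbl1, chr2:157204485-157204784, minus strand: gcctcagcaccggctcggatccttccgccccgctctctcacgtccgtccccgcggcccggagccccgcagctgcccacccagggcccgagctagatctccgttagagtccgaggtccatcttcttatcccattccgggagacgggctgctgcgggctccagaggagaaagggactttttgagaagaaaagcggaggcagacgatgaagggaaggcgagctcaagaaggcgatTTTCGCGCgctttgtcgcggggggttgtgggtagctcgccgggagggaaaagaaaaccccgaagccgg
E2f3, word at chr13:29986067-29986074, minus strand: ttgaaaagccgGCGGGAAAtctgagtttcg
E2f2, word at chr4:136172313-136172320, plus strand: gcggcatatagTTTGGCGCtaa
E2f7, word at chr10:110745241-110745248, plus strand: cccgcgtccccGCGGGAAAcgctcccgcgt

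The Rbl1 word ended 11 bases before the start site. The E2f3 word lay 11 to 4 bases before it, in the window of the upstream of the 2 start sites. The E2f2 word lay 40 to 47 bases after a RefSeq start that sits 120 bases upstream of the gene as annotated in the files' build, and the E2f7 word lay 198 to 191 bases before the start. The windows of E2f6, E2f8 and Rbl2 held none of these words. The E2f1 window began from a start site 467 bases inside the gene, so the stretch before the first base of E2f1 was not searched. The word TTTGAA, the core of the CHR element that recruits MuvB complexes was in 4 of the 10 member windows and in 17.9% of all windows. Its 4 holders were E2f3, E2f8, Rbl2 and the downstream start of E2f2, and no match overlapped an E2F word. A match shows only that the letters are present in the window.

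The scaled levels of 2 members, E2f1 and Rbl1, were lower in the aged samples. The most abundant member, E2f4, sat higher in every aged sample without passing the threshold. Levels are given as CPM, a gene's counts per 1000000 of the TMM-scaled total of its library. Age was tested with edgeR (quasi-likelihood), and p-values were adjusted by Benjamini-Hochberg across the 11878 genes left by a filter on low counts. Genes under 0.05 after adjustment are referred to as called. Of the 10 members 9 were tested, and E2f7 fell to the filter. The 2 called members were both lower in aged, none was higher, and the other 7 were not called. Of all tested genes 7.97% were called lower and 9.73% higher. At an unadjusted p under 0.05, edgeR counted 2 members lower and 1 higher of 9, against 16.5% lower and 18.1% higher of all tested genes. Both DESeq2 and limma-voom called 2 lower and 0 higher after adjustment. Every aged sample lay below every young sample for 2 of the 9 members and above for 1, against 19.0% and 19.2% of all tested genes. The median log2 fold change was −0.09 over the 9 members and −0.02 over all tested genes.

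**Figure D1:**
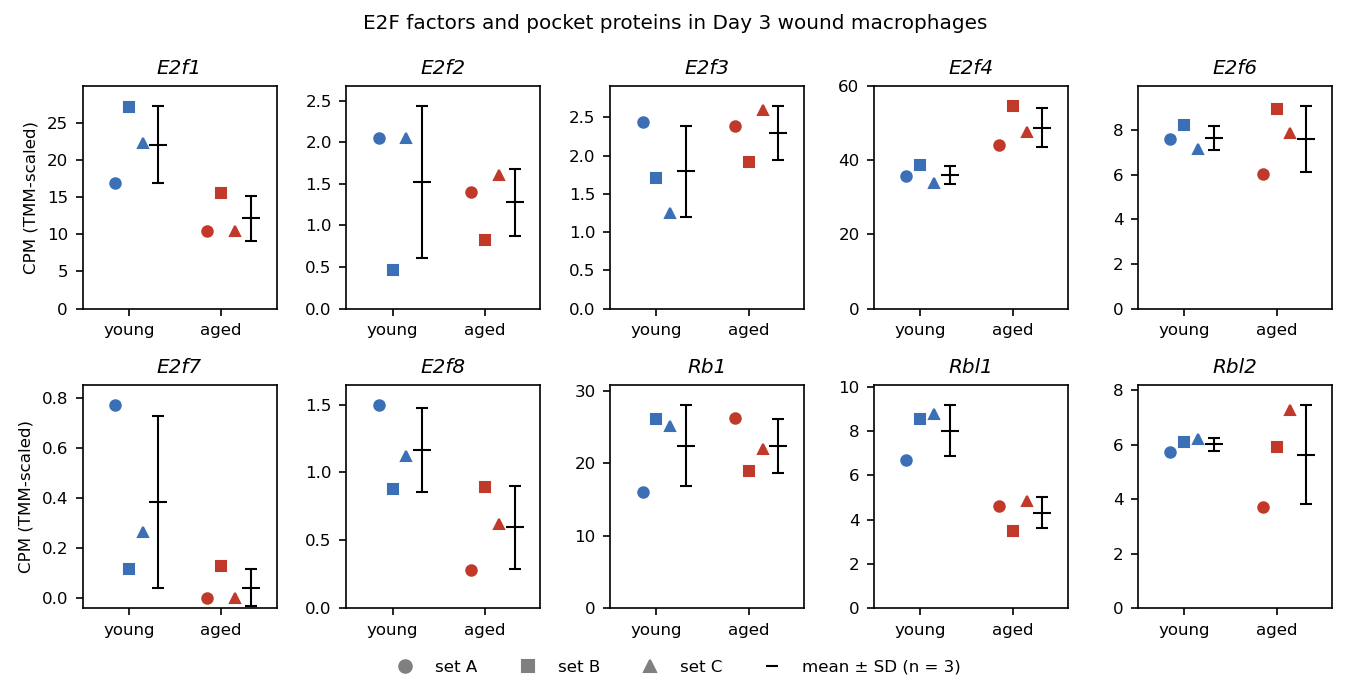
Level (CPM, TMM-scaled, y axes from 0 or just below) of the 10 members in the 3 young and 3 aged samples. Each symbol is 1 sample with its set letter, and the cross and bar beside it are the mean and SD. The aged points of E2f1 and Rbl1 lie below all young points, and those of E2f4 lie above them.

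E2f1, the activator that drives entry into S phase and can also trigger apoptosis, lies on mm10 at chr2:154559407-154569893, minus strand. Its CPM was 16.8, 27.1 and 22.2 in young sets A, B and C and 10.4, 15.5 and 10.4 in aged sets A, B and C. No aged sample reached the lowest young one, although aged B and young A lay close to each other. The mean went from 22.0 ± 5.15 (SD, n = 3) to 12.1 ± 2.97, a 1.82-fold lower level in aged. The log2 fold change was −0.86 (SE 0.24, 95% interval −1.40 to −0.33, edgeR adjusted p = 0.0359). Dropping young A or aged B kept the call (edgeR adjusted p = 0.0136 and 0.0259). The call was lost without young B (edgeR adjusted p = 0.122), young C (0.123), aged A (0.0881) or aged C (0.133), with the log2 fold change between −1.07 and −0.68 over all 6 fits.

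The other activators were close to the lower end of what the libraries could resolve, where 1 count was worth 0.0553 to 0.0701 CPM. E2f2, which overlaps E2f1 in function in blood cell precursors, gave 37, 8 and 31 counts in young and 20, 13 and 26 in aged. Its log2 fold change of −0.25 had a 95% interval of −1.49 to 0.996 (edgeR adjusted p = 0.787), and its sign changed among the alternatives. E2f3, whose 2 promoters make a long and a short form that gene counts cannot separate, gave 44, 29 and 19 counts in young and 34, 30 and 42 in aged. Its log2 fold change was 0.35 (95% interval −0.50 to 1.19, edgeR adjusted p = 0.553). For both genes the young and aged samples overlapped, and the intervals are wide enough to hold a doubling of E2f3 and a fall or a rise of E2f2.

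E2f4, the main E2F of resting and differentiated cells and a subunit of DREAM, lies at chr8:105297663-105305371, plus strand. Its CPM was 35.7, 38.7 and 33.8 in young and 44.2, 54.6 and 47.6 in aged. All aged samples were above all young ones, and the closest pair was young B and aged A. The mean went from 36.0 ± 2.47 to 48.8 ± 5.29 (SD, n = 3), 1.35-fold, with a log2 fold change of 0.44 (SE 0.16, 95% interval 0.08 to 0.79). The edgeR adjusted p was 0.0809 and ran from 0.0737 to 0.247 over the 13 alternatives, so E2f4 was called in none of them. E2f5, the other canonical repressor and no member here, showed 8.86 ± 1.49 CPM in young and 6.55 ± 0.760 in aged, with all aged samples below all young ones. Its log2 fold change was −0.43 (SE 0.23, edgeR adjusted p = 0.212).

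E2f6 was not called. Its CPM was 7.58, 8.21 and 7.13 in young and 6.02, 8.92 and 7.84 in aged, and the aged samples spanned the young ones on both sides. The log2 fold change was −0.01 (95% interval −0.53 to 0.51, edgeR adjusted p = 0.986), which leaves room for a change of up to about the size of the E2f4 difference.

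The atypical repressors E2f7 and E2f8 were the sparsest members. E2f8 gave 27, 15 and 17 counts in young and 4, 14 and 10 in aged. Only 1 aged sample reached the filter's level of 0.632 CPM, which is taken on library totals without TMM scaling. Young B at 0.880 CPM and aged B at 0.892 CPM were alike, so the groups overlapped. The log2 fold change of −0.95 carried an SE of 0.53 (95% interval −2.13 to 0.23, edgeR adjusted p = 0.233). E2f7 gave 14, 2 and 4 counts in young and 0, 2 and 0 in aged. Against a floor of 3 counts per aged library, its young mean was at least 1.97-fold higher, and without young A it was under that floor, so the difference rests on 1 library.

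Among the pocket proteins only Rbl1 was called. Rbl1 encodes p107, the pocket protein that rises in cycling cells, and lies at chr2:157145893-157204535, minus strand, downstream of the E2F word printed above. Its CPM was 6.69, 8.57 and 8.79 in young and 4.62, 3.50 and 4.82 in aged, with every aged sample below every young one. The mean went from 8.01 ± 1.15 to 4.31 ± 0.710 (SD, n = 3), 1.86-fold lower in aged. The log2 fold change was −0.89 (SE 0.25, 95% interval −1.45 to −0.33, edgeR adjusted p = 0.0369). The call held without young A (edgeR adjusted p = 0.0283). It was lost without young B (edgeR adjusted p = 0.103), young C (0.141), aged A (0.0629), aged B (0.10) or aged C (0.0905), with the log2 fold change between −1.003 and −0.75 over the 6 fits.

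Rb1, the retinoblastoma gene itself, stood at 16.1, 26.2 and 25.2 CPM in young and 26.3, 18.9 and 22.1 in aged. The lowest sample was young A and the highest aged A, and the means were 22.5 ± 5.55 and 22.4 ± 3.69 (SD, n = 3). Its log2 fold change was −0.00 (95% interval −0.50 to 0.49, edgeR adjusted p = 0.993). Rbl2, which encodes p130 of resting cells, gave 5.75, 6.10 and 6.21 CPM in young and 3.71, 5.92 and 7.29 in aged. The young samples were tight and the aged ones lay on both sides of them (log2 fold change −0.09, 95% interval −0.72 to 0.54, edgeR adjusted p = 0.849). Exons of Rb1 share 408 bases with Lpar6 and 488 with Rcbtb2 on the opposite strand, and those of Rbl2 share 693 bases with Aktip and 892 with Gm45464. Whether the counting used strand is not given in the sources used here, so reads in these stretches could belong to either gene. E2f1, E2f2, E2f3, E2f4, E2f6 and Rbl1 had no such overlap, while E2f7 shared 86 bases with 1700020G17Rik and E2f8 610 bases with Gm2788.

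**Figure D2:**
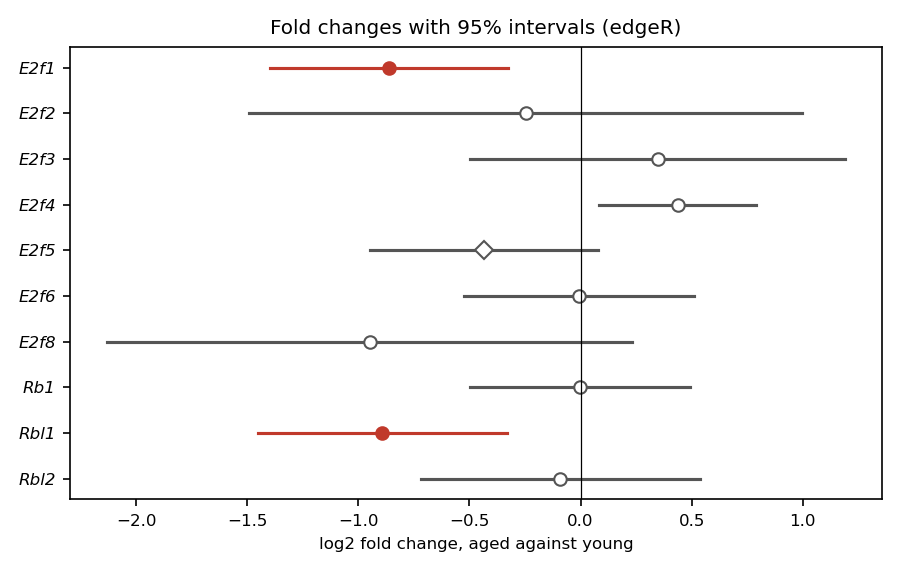
Log2 fold changes of aged against young (x axis) with 95% intervals from edgeR for the 9 tested members and, as a diamond, E2f5. Filled red points are called at an adjusted p under 0.05. The intervals of E2f1, Rbl1 and E2f4 leave out 0, and the adjusted p of E2f4 was 0.0809.

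To compare levels between genes, CPM was divided by the length of the longest annotated transcript. Per kb, E2f4 led in both ages, at 18.1 ± 1.24 CPM per kb in young and 24.5 ± 2.65 in aged (SD, n = 3). In young samples E2f1 came next at 8.00 ± 1.87, followed by Rb1 at 4.83 ± 1.19, E2f6 at 2.53 ± 0.180, Rbl1 at 1.65 ± 0.236 and Rbl2 at 1.22 ± 0.0484 CPM per kb, and each neighbouring pair in this stretch was separate. E2f3, E2f2 and E2f8 followed at 0.353, 0.321 and 0.316 CPM per kb with E2f2 overlapping both E2f3 and E2f8, and E2f7 was last and below E2f8 in every sample. In aged samples the order changed at 2 places. Rb1 at 4.81 ± 0.793 and E2f1 at 4.40 ± 1.08 CPM per kb overlapped, as did Rbl2 at 1.15 ± 0.366 and Rbl1 at 0.887 ± 0.146. These orders are of levels and were not tested.

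Within each role a single gene made up most of the transcripts. E2f1 accounted for 91.7% ± 4.40 of the summed activators per kb in young and 85.3% ± 5.07 in aged (SD, n = 3). E2f4 made up 80.3%, 80.8% and 74.0% of E2f4 plus E2f5 in young and 85.8%, 86.9% and 88.0% in aged. This gap follows from E2f4 being higher and E2f5 lower in every aged sample, and neither gene was called. Rbl1 made up 22.9%, 20.4% and 21.3% of the pocket proteins in young and 12.9%, 12.0% and 13.8% in aged, and the shares of the ages did not meet. The summed pocket proteins overlapped between the ages, at 7.70 ± 1.47 CPM per kb in young and 6.85 ± 0.749 in aged. With 3 samples against 3, an exact two-sided permutation test cannot pass the threshold, so shares and ratios are given without a p.

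**Figure D3:**
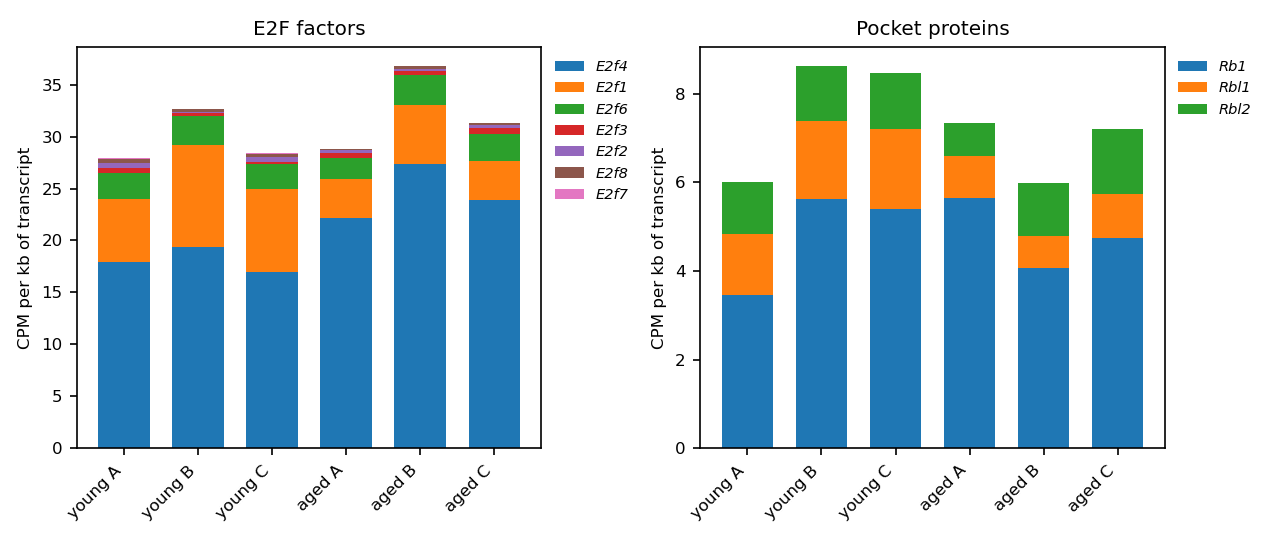
CPM per kb of transcript (y axes from 0) stacked for the E2F members (left) and the pocket proteins (right) in each of the 6 samples. E2f4 fills most of every E2F bar, and the Rbl1 segment is thinner in the 3 aged bars, at 12.0% to 13.8% of the pocket proteins, than in the 3 young bars, at 20.4% to 22.9%.

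Ratios within a library do not depend on its scaling. The ratio of E2f1 to E2f4 in CPM was 0.471, 0.701 and 0.658 in young and 0.235, 0.285 and 0.219 in aged. The highest aged ratio was well below the lowest young one. The ratio of Rbl1 to E2f4 was 0.188, 0.222 and 0.260 in young and 0.105, 0.0642 and 0.101 in aged, again without overlap. E2f1 and Rbl1 were lower and E2f4 higher in every aged sample. Both ratios to E2f4 therefore had to separate by age, and they add no evidence to the levels above. That of E2f1 to Rb1 was 1.04, 1.04 and 0.882 against 0.395, 0.822 and 0.473, with young C and aged B near each other. The ratios of Rbl1 to Rbl2 and of Rb1 to E2f4 overlapped between the ages.

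Among 6587 genes with a mean of at least 10 CPM, those with level patterns most like E2f1 over the 6 samples included Ino80b (Pearson r = 0.993) and Ly9 (0.992). Ino80b stood at 11.2, 14.9 and 13.3 CPM in young and 8.90, 10.5 and 9.08 in aged. For E2f4, which was also the member with the highest mean, the closest were H2bc4 (r = 0.998), Slc35b3 (0.997) and Maea (0.995). H2bc4 stood at 35.1, 40.0 and 31.8 CPM in young and 49.7, 74.3 and 60.0 in aged. With 2 ages in 6 samples, 313 genes had r above 0.9 with E2f1 and 215 with E2f4, so such likeness is common here.

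The partners and upstream regulators of the family were read against the 7.97% of all tested genes called lower and the 9.73% called higher, or 16.5% and 18.1% at an unadjusted p under 0.05. Tfdp1, the main DP partner, stood at 33.0 ± 7.37 CPM in young and 34.8 ± 4.08 in aged (log2 fold change 0.08, edgeR adjusted p = 0.812), a sign that turned in 2 of the 13 alternatives. Tfdp2 was at 2.26 ± 0.103 and 1.65 ± 0.446 CPM with a log2 fold change of −0.45 (edgeR adjusted p = 0.411). Of the 9 tested genes of the DP and MuvB list, only Mybl2 was called, a share near that of all genes. Mybl2 encodes B-MYB, which joins MuvB in S phase, and its counts were 51, 19 and 34 in young and 11, 10 and 5 in aged (log2 fold change −1.85, SE 0.53, edgeR adjusted p = 0.0376). Its call held in 1 of the 6 fits that left out a sample, the one without young B, with the edgeR adjusted p from 0.046 to 0.136. On library totals without TMM scaling, Mybl2 reached the filter's level in all 3 young but only 1 aged sample. It was therefore tested through the group where it is high. Limma-voom called 0 genes of this list lower, DESeq2 2, and edgeR 0 with at least 10 counts required in every sample. None of the 9 G1 cyclins, kinases and activating phosphatase was called (edgeR, 1 lower at an unadjusted p under 0.05; median log2 fold change −0.15). Cdk4, the highest of them, stood at 119.0 ± 13.0 CPM in young and 106.9 ± 3.19 in aged (edgeR adjusted p = 0.510). None of 5 CDK inhibitors was called either (edgeR, 1 higher and 1 lower at an unadjusted p under 0.05), while DESeq2 called 1 higher. Cdkn1a, the p53 target p21, gave 1641, 1091 and 1147 CPM in young and 2396, 1462 and 2161 in aged, with overlap (log2 fold change 0.63, edgeR adjusted p = 0.0890). Without young A or aged B, Cdkn1a passed the threshold, and its edgeR adjusted p ran from 0.035 to 0.261 over the 6 fits.

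Next came the genes that E2F factors control at the G1/S boundary. Of 56 such genes 52 were tested, 26 were called lower and 0 higher, against 7.97% and 9.73% of all tested genes (edgeR; 35 lower and 1 higher at an unadjusted p under 0.05, where 16.5% and 18.1% of all tested genes lay; DESeq2 called 28 lower and 1 higher). The median log2 fold change was −1.04, 46 of the 52 were negative, against 6081 of all 11878, and 35 had all aged samples below all young ones, against 19.0% of all tested genes. The list was chosen with results of these samples known, so its direction is not independent evidence. Tk1, the thymidine kinase of S phase, stood at 13.6, 7.39 and 13.1 CPM in young and 1.61, 3.69 and 2.72 in aged (log2 fold change −2.08, edgeR adjusted p = 0.00738). Mcm10, a replication initiation factor, went from 1.37 ± 0.245 to 0.322 ± 0.118 CPM (log2 fold change −2.06, edgeR adjusted p = 0.0250). Gins1, a subunit of the replicative helicase, went from 5.23 ± 1.65 to 1.26 ± 0.786 CPM (log2 fold change −2.04, edgeR adjusted p = 0.0166). Left out 1 at a time, Tk1 and Gins1 lost their call only without young C, and Mcm10 held its call only without aged B. No aged sample of Mcm10 reached the filter's level, so it was tested only because of its young samples, as were 5 of the 52 genes, 2 of them called. The count called lower was 22 or 23 without young A, young B, aged A or aged B, but 12 without aged C and 4 without young C. The number of all tested genes called lower also moved widely over these fits, as given below under the processing. These counts are therefore not read as particular to this list. Not every target was low. Slbp, which binds histone mRNA, stood at 121.8 CPM in young and 186.1 in aged (log2 fold change 0.61, edgeR adjusted p = 0.0689), Pcna differed by −0.18 (edgeR adjusted p = 0.481) and Cdt1 by 0.09 (edgeR adjusted p = 0.873) on the log2 scale. These 3 were singled out after their values were seen.

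**Figure D4:**
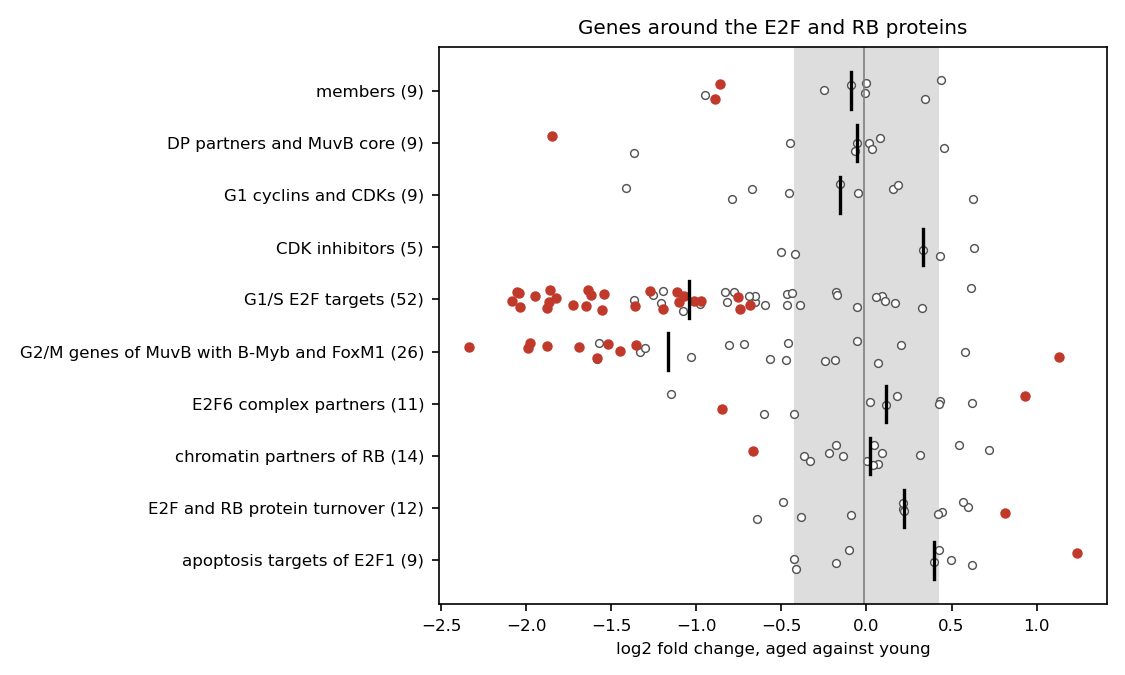
Log2 fold changes of aged against young (x axis) for each tested gene of the members and 9 lists (rows, number tested in parentheses). Filled red points are called by edgeR, the black tick is the list's median, and the grey band and line are the interquartile range and median of all tested genes. The medians of the G1/S and G2/M lists are −1.04 and −1.17, against −0.09 for the members.

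The later targets, mitotic genes switched on by MuvB with B-MYB and FOXM1, showed 9 lower and 1 higher of 26 tested, against 7.97% and 9.73% of all tested genes (edgeR, 10 lower and 1 higher at an unadjusted p under 0.05, median log2 fold change −1.17). Of the 26 genes 9 passed the filter only through their young samples, Ube2c, Nusap1 and Birc5 among them, and these 9 hold 5 of the genes called lower. Limma-voom called 6 lower, and with at least 10 counts required in every sample edgeR called 4. Ube2c, which serves the anaphase-promoting complex, gave 7.69, 1.99 and 6.94 CPM in young and 0.210, 2.36 and 0.679 in aged (log2 fold change −2.34, edgeR adjusted p = 0.0449), so young B overlapped the aged samples. Only 1 aged sample of Ube2c reached the filter's level, which is taken without TMM scaling. Nusap1 (log2 fold change −1.99, edgeR adjusted p = 0.0274) and Birc5 (−1.98, edgeR adjusted p = 0.0371), both of the mitotic spindle and chromosomes, were also called. Of the 6 fits with a sample left out, Ube2c was called in 2 (not without young A, young C, aged A or aged C), Nusap1 in 4 (not without young C or aged C) and Birc5 in 3 (not without young A, young C or aged C), with edgeR adjusted p up to 0.153, 0.125 and 0.125. The list's count called lower was 8 without young B, 10 without aged B, 4 without young A or aged A, and 0 without young C or aged C. Here too the number of all tested genes called lower moved widely over the same fits, so these counts are not read as particular to the list. Mki67, the proliferation marker Ki-67, went the other way, at 1.94, 1.70 and 1.65 CPM in young and 3.50, 5.03 and 3.09 in aged (log2 fold change 1.13, edgeR adjusted p = 0.0412). Its edgeR adjusted p was 0.0513 to 0.139 when any 1 sample was left out, so the Mki67 call rests on each of them.

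E2F6 works with a Polycomb complex, and of its 11 tested partners 1 was called higher and 1 lower, near the 9.73% and 7.97% of all tested genes. Rybp, a subunit of that complex, went from 49.6 ± 16.5 to 94.5 ± 3.52 CPM (log2 fold change 0.93, edgeR adjusted p = 0.0267), with young B lowest. Cbx3, which binds methylated histone H3, went from 17.8 ± 1.26 to 9.86 ± 2.88 CPM (log2 fold change −0.85, edgeR adjusted p = 0.0340). Rybp lost its call without young C, aged A or aged C (edgeR adjusted p up to 0.0843), and Cbx3 without young B, young C, aged A or aged B (up to 0.12). Of 12 germline genes that E2F6 keeps silent, 9 were not in the table and only Tdrkh was tested, at 1.88 ± 1.01 CPM in young and 1.25 ± 0.531 in aged (edgeR adjusted p = 0.450). Among 14 chromatin partners of RB only Rbbp7, a histone-binding protein of several repressor complexes, was called, a share near the 7.97% of all tested genes called lower. It went from 76.7 ± 6.20 to 48.3 ± 4.73 CPM (log2 fold change −0.67, edgeR adjusted p = 0.0208), and the call was lost without young C or aged C (edgeR adjusted p up to 0.0992).

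Of 12 genes that act on the stability or phosphorylation of E2F and RB proteins, only Mdm2, the ubiquitin ligase of p53 that also binds RB, was called, a share near the 9.73% of all tested genes called higher. No gene of this list was called higher when no filter on low counts was applied, and DESeq2 called 2. Mdm2 stood at 348.8, 233.5 and 430.7 CPM in young and 484.2, 566.4 and 733.7 in aged (log2 fold change 0.82, edgeR adjusted p = 0.0444), and the call held in 1 of the 6 fits with a sample left out, the one without aged A. Of 9 tested apoptosis genes that E2F1 can activate, 1 was called, and it rose. Bcl2l11, which encodes the death-promoting protein BIM, stood at 94.3, 94.2 and 107.7 CPM in young and 191.9, 235.2 and 270.0 in aged. Its log2 fold change was 1.23 (edgeR adjusted p = 0.00379), and it was called in all 6 fits with a sample left out. The median of this list was 0.40, with 4 genes higher and 0 lower at an unadjusted p under 0.05 in edgeR, against 18.1% and 16.5% of all tested genes. With 9 genes tested, the 1 called is near the share of all genes called higher (9.73%).

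The markers of the sort and of other cells were read beside these results, and their counts of calls stand against the same 9.73% higher and 7.97% lower of all tested genes. Cd4 passed the filter only through its young samples and Krt14 only through its aged ones. Ptprc (CD45, 210.4 CPM in young and 251.1 in aged) and Fcgr1 (CD64, 450.2 and 499.8) were not called (edgeR adjusted p = 0.386 and 0.520), while Itgam (CD11b) rose by 0.99 and Adgre1 (F4/80) fell by 0.69 on the log2 scale (edgeR adjusted p = 0.00735 and 0.0292). The 9 macrophage markers summed to 29150 to 44130 CPM in young and 20860 to 25920 in aged samples, with 1 called higher and 2 lower, so every aged sample was below every young one in this sum. Lyz2, which was not called (edgeR adjusted p = 0.0753), made up most of it, and without Lyz2 the sums were 4991 to 5308 CPM in young and 4353 to 4623 in aged. C1qa, of tissue macrophages, was at 1138 ± 47.8 CPM in young and 534.8 ± 153.2 in aged (edgeR adjusted p = 0.0130). The neutrophil list summed to 658.8 to 1121 CPM in young and 804.3 to 1380 in aged (2 of 10 tested higher, Cxcr2 and Retnlg), and Camp and Mpo were not in the table. The monocyte list summed to 1190 to 2857 and 2805 to 3898 CPM, with Vcan higher (log2 fold change 2.13) and Cx3cr1 lower (−1.87). The ages overlapped narrowly in this sum, with young C above aged C. Most of it was Chil3, which was not called (edgeR adjusted p = 0.0820). Without Chil3 the sums overlapped more widely, at 548.1 to 955.7 CPM in young and 568.4 to 1088 in aged. Dendritic cell markers (16.5 to 55.0 and 30.3 to 94.0 CPM) had none called of 5 tested by edgeR. Lymphocyte markers summed to at most 6.28 CPM in any sample, with Cd8a and Ncr1 not in the table and Cd4 called lower (log2 fold change −1.76). Mean CPM was higher in aged for Cd3e, Cd79a and Ms4a1 and lower for Cd3g, Trbc2, Klrb1c and Nkg7. None of these was called, and all but Nkg7 fell to the filter. Endothelial and erythroid markers summed to 117.8 to 348.5 CPM in young and 56.0 to 135.4 in aged, with Pecam1 higher and Hba-a1 and Hbb-bs lower. Most of the sum was Hba-a1 and Hbb-bs, and without Hbb-bs it was 46.7 to 110.9 CPM in young and 36.2 to 59.9 in aged. The other endothelial genes did not rise with Pecam1 to a call. Kdr had a log2 fold change of −0.40 (edgeR adjusted p = 0.634), and Cdh5 and Tek fell to the filter. Aged B stood apart by keratinocyte transcripts, with 1259 Krt14 counts against 0 to 14 in the other samples, and without it the log2 fold change was −1.07 for E2f1 and −0.75 for Rbl1. Of the called markers, Itgam, Vcan and Pecam1 held in all 6 fits with a sample left out, and the other 9 held in 1 to 4 and were each lost without young C. The fibroblast list was also high in aged B alone, at 119.2 CPM, while aged A was the lowest of all samples at 12.4, and aged C at 35.1 lay within the young samples (23.4 to 41.0). In these bulk samples fewer cells of a type and less RNA per cell cannot be told apart. The part that these markers have in the E2f1, Rbl1 and target gene differences was not tested.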

How the data were processed

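RNA was sequenced from 3 young and 3 aged samples of sorted wound macrophages after SMART-Seq v4 amplification. Per the labels and the study's methods, the authors aligned reads to mm10 with STAR 2.7.3a in Partek Flow and quantified them on Ensembl release 102 transcripts. The table used holds the expected counts that the authors deposited, not normalized, and in every sample some of them were not whole. They were rounded here. A further deposited table holds the authors' scaled values, fold changes and p-values, and these were not used.

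Genes were filtered by filterByExpr (minimum count 10), scaled by TMM (factors 0.904 to 1.11) and tested by age in edgeR 4.0.16 (limma 3.58.1, R 4.3.3) with Benjamini-Hochberg adjustment over 11878 genes. The biological coefficient of variation was 0.239. DESeq2 1.42.0, limma-voom, other scaling and filters, a replicate block, unrounded counts, a 2-fold threshold and leaving out each sample were the alternatives. Fits were tested on simulated data first. Intervals are at 95% and the floor is 3 counts per library, covering counting error only. Figures were drawn with matplotlib 3.10.9 in Python 3.11.15 (pandas 2.3.3). Transcript lengths and overlaps came from the GENCODE annotation of the same build, and promoters from RefSeq.

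The members and lists were chosen with earlier results of these data known. Genes named are all members, the DP partners, Mki67, the sort genes, up to 3 called genes with the largest rise and fall per list (the highest gene where none was called), and the 3 genes most like the members with the lowest p per direction and the highest level. Some genes that these rules name are not reported here.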

Additional observations from a re-analysis of the deposited data

How the results depend on the processing

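E2f1 and Rbl1 were the 2 members called lower, with 0 higher, under DESeq2, limma-voom, DESeq2 size factors, both other filters, unrounded counts and the replicate block. With a 2-fold threshold added, 0 members were called lower, and 545 genes were higher and 499 lower among all tested. Leaving out 1 sample moved the members called lower to between 0 and 2, which was 0 without young B, young C, aged A or aged C, 1 without aged B and 2 without young A. The same fits gave 151 to 1574 genes higher and 67 to 1128 lower. E2f4 stayed uncalled in all 13 alternatives. The signs of E2f2, E2f6, Rb1, Rbl2 and Tfdp1 depended on the setting. The median over all genes lay between −0.04 and 0.00 in every fit.

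The set letters gave correlations of deviations of 0.181 (A), −0.02 (B) and 0.114 (C) between the ages, so they were not read as pairing the samples, and young B and young C matched another letter best. With the replicate block, 1202 genes were higher and 912 lower, with 2 members lower and 0 higher. The block left 4 lower and 0 higher in the G2/M list (Mki67 edgeR adjusted p = 0.0562), 0 lower in the DP and MuvB list and 0 higher among neutrophil markers, and gave 2 dendritic cell markers and 1 CDK inhibitor higher. Fits without 1 sample leave 2 in its group. At 1 count worth 0.0553 to 0.0701 CPM, E2f8 and E2f2 are too sparse for a difference of less than their intervals to be seen. E2f7 was too sparse to pass the main filter. In the 2 alternatives that kept E2f7 it was not called. Its log2 fold change there, −3.16 to −2.96, rests on 0, 2 and 0 aged counts.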

Other observations

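Over all genes with a RefSeq promoter, those holding an E2F word were compared with those without one, as counts only. Of 411 tested genes with a word 9.73% were called lower and 6.81% higher, against 8.33% and 10.5% of 8342 without (edgeR). Outside the lists the shares were 8.40% lower and 7.35% higher of 381 genes with a word, and 8.17% and 10.6% of 8217 without. Within the G1/S list 5 of 17 genes with a word and 13 of 23 without were called lower. E2F words were in 38.0% of the G1/S list's promoters and 3.70% of the G2/M list's, while TTTGAA was in 12.0% and 70.4%. None of these shares was tested.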
